A study of Mus musculus with 4 samples.

Results

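The 34 genes described here act in G2 and mitosis, and they were followed in microglia, the resident macrophages of the brain, after whole-brain irradiation. They were listed by name out of 27998 gene identifiers in the files, with no threshold on a measured value but with earlier results of these data known. Single cells of C57BL/6 mice were captured in droplets (10x Genomics Chromium) and sequenced as 4 libraries, each from 1 pool of 4 mice and the only one of its group. The groups were sham and irradiated mice, taken at 6 h or at 1 wk. Irradiated mice received a single 8 Gy dose to the whole brain at postnatal day 21, and sham mice were the controls. The labels give postnatal day 21 as the age of every group, including the 1 wk groups. The source is labelled brain but the series' design text names the hippocampus, and which region was used is not settled. Sex is not stated in the labels. The cells are not assigned to single mice.

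Transcripts were counted by UMIs, random barcodes that mark single captured molecules. After filtering, the libraries held 2652, 1986, 1582 and 2149 cells with medians of 3532.5, 3512.5, 3594 and 3437 UMIs per cell. Every list of 4 values below follows that order: sham 6 h, irradiated 6 h, sham 1 wk, irradiated 1 wk. Library totals ran from 5675117 to 9736149 UMIs, and levels are given in CPM, the UMIs of a gene scaled to 1000000 UMIs of its library. The label of microglia was checked against 9 microglia markers: 1 of the 8369 cells carried fewer than 3 of them, and all 9 were present in each library, at summed levels of 68400, 58700, 63400 and 64800 CPM. The 5 neutrophil markers were at 0 UMIs in every library. Between sham 6 h and irradiated 6 h the summed level went from 0.411 to 8.69 CPM for 5 markers of oligodendrocyte precursors, from 4.93 to 27.6 CPM for 7 of neural progenitors and neuroblasts and from 148 to 258 CPM for 6 of astrocytes. Their part in the differences at 6 h was not tested. There were 41 barcode sequences that occurred in more than 1 library. With 1 library per group no difference has a replicate check and none was tested. All intervals are 95% intervals that cover counting error only, not differences between mice, pools or captures of cells.

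In G2 a cell holds duplicated chromosomes and builds up cyclin B and Cdk1, the kinase pair that drives entry into mitosis. Plk1 and the Aurora kinases then organise the spindle and the chromosomes, and the anaphase-promoting complex with Cdc20 and Ube2c ends mitosis by marking cyclin B and other proteins for destruction. Adult microglia renew slowly by division, and after DNA damage p53 raises Cdkn1a, whose protein p21 holds the cell cycle. Many mitotic genes carry in their promoters a CHR element, bound by the DREAM and B-MYB complexes, and CCAAT boxes, bound by NF-Y.

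The promoters show a feature that most of these genes share and that the listing by name did not use. RefSeq promoter windows (250 bases before to 50 after the start, GRCm38.p6, the build called mm10 in the submitters' processing notes) were matched for 28 of the 34 genes. Both strands were searched for TTTGAA (the CHR core) and for CCAAT, which can overlap by at most 1 base. TTTGAA was found for 22 of the 28 genes (78.6%), against 20.2% of all 27025 genes with a window, CCAAT for 23 (82.1%) against 41.1%, and both for 20 (71.4%) against 7.97%. A match is a string of letters in a window, not a measured binding site. Below are the 150 bases just before the start of 4 genes on which the results turn, 5′ to 3′ on the gene's strand, with matches to either motif on either strand in capitals. GENCODE vM21 has no exon in these stretches.
Top2a, chr11:99024190-99024339, minus strand: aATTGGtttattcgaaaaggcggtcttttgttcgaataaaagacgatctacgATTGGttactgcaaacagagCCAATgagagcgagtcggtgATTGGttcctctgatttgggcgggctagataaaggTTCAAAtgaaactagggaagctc
Mki67, chr7:135716380-135716529, minus strand: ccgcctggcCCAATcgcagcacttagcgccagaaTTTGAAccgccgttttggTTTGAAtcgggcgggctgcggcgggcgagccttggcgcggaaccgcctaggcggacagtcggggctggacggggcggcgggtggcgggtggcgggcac
Ccnb2, chr9:70421555-70421704, minus strand: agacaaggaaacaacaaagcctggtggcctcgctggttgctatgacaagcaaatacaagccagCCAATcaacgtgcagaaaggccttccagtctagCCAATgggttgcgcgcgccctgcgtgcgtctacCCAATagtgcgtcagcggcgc
Hmgb2, chr8:57511693-57511842, plus strand: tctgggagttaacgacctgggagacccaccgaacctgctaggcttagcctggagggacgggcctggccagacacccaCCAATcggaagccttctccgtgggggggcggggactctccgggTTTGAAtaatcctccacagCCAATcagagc
Ccnb2 has its TTTGAA matches outside the bases shown. Nusap1, Tacc3 and Birc5 had neither motif in their windows.

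Summed over the 34 genes, the level was lower in irradiated than in sham microglia at 6 h and higher at 1 wk. The sums were 2832, 784, 887 and 3579 UMIs, or 291, 106, 156 and 464 CPM. Irradiated cells at 6 h thus had the lowest level and irradiated cells at 1 wk the highest, with sham at 1 wk below sham at 6 h. The log2 fold of irradiated over sham was -1.45 (-1.57 to -1.34) at 6 h and 1.57 (1.46 to 1.68) at 1 wk, and that of the sham libraries, 1 wk over 6 h, was -0.9 (-1.01 to -0.79). Hmgb2 alone gave 902, 342, 466 and 888 of these UMIs. Without Hmgb2 and Smc4, both found in many cells that held few other members, the other 32 had log2 folds of -1.86 (-2.03 to -1.7), 2.42 (2.26 to 2.59) and -1.55 (-1.72 to -1.38). Cdk1, which was also found in many such cells, stayed among the 32.

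Of the 34 genes, 29 had at least 50 UMIs over the 4 libraries together and entered the counts below. A gene was called higher or lower when it differed by at least 1.5-fold and its counting interval left out no change. At 6 h, 28 of the 29 were called lower and 0 higher, where 8.85% of the 10635 genes tested were called lower and 8.65% higher. The median log2 fold was -2.0 over the 29 members, -1.93 over all 34 with a library at 0 put at 3 UMIs, and -0.06 over all genes tested. At 1 wk, 28 were called higher and 0 lower, where 3.61% of genes were called higher and 2.82% lower. The medians there were 2.51, 2.42 and 0.03. Lower at 6 h and higher at 1 wk were 27 of the 29 members and 0.827% of all genes tested. The members' UMIs lay in part in the same few cells, so their calls are not independent of each other. Between the sham libraries, 25 members were called lower at 1 wk than at 6 h, and 0 higher, against 4.37% and 2.57% of genes, with medians of -1.49, -1.44 and -0.05. Both irradiation comparisons therefore rest on shams whose own levels of these genes differ.

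**Figure D1:**
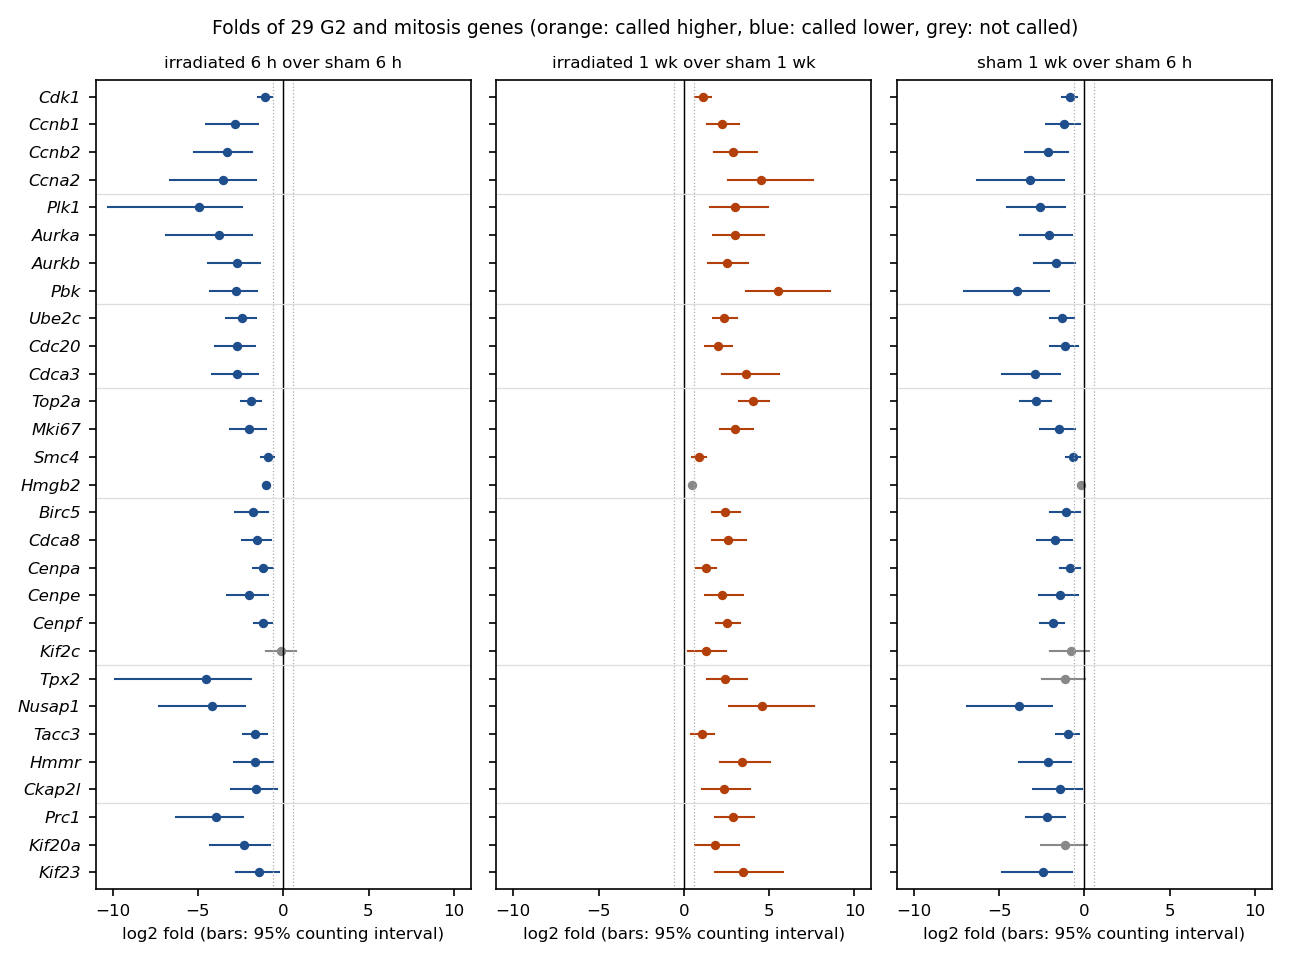
Log2 folds (x axis) of the 29 G2 and mitosis genes with at least 50 UMIs, in 3 comparisons; bars are 95% counting intervals, and dotted lines mark 1.5-fold. The points lie left of 0 for every gene at 6 h and right of 0 for every gene at 1 wk; Kif2c at 6 h and Hmgb2 at 1 wk were not called.

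Each irradiated library was also set against the sham library of the other time. Irradiated cells at 6 h had 5 members called lower than sham at 1 wk (Ccnb1, Ube2c, Cdc20, Hmgb2 and Tpx2) and 0 higher, against 8.83% of genes called lower and 11.1% higher, and the median log2 fold over the 29 was -0.51. Irradiated cells at 1 wk had 21 members called higher than sham at 6 h and 0 lower, against 3.49% of genes called higher and 4.63% lower, with a median of 0.83. Summed over the 34, these log2 folds were -0.55 (-0.69 to -0.41) and 0.67 (0.6 to 0.74). The comparisons share libraries and are not independent. The sums kept their direction against either sham, but at 6 h only 5 members were called lower against the other sham in place of 28, and 8 of the 29 had a log2 fold above 0 there. In irradiated 6 h and sham 1 wk, Hmgb2 alone gave 342 and 466 UMIs, or 46.4 and 82.1 CPM. The 32 members without Hmgb2 and Smc4 had 357 and 343 UMIs, of which 70 and 119 came from 1 cell each. These are raw counts from libraries of unequal totals, 7365977 and 5675117 UMIs. Whether these 32 differed between the 2 libraries apart from those cells was not tested.

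Cdk1, the kinase that the mitotic cyclins switch on, had 181, 65, 59 and 174 UMIs in 137, 57, 57 and 102 cells. Its log2 fold was -1.07 (-1.51 to -0.66) at 6 h and 1.12 (0.68 to 1.57) at 1 wk. Ccnb1, which encodes cyclin B1, had 47, 5, 12 and 76 UMIs in 14, 4, 5 and 19 cells. Cyclin B1 was thus carried by few cells in every library. Its log2 folds were -2.83 (-4.52 to -1.51) and 2.22 (1.33 to 3.23). Ccnb2, for cyclin B2, had 52, 4, 7 and 71 UMIs in 20, 3, 2 and 23 cells, with log2 folds of -3.3 (-5.23 to -1.86) and 2.9 (1.78 to 4.26). Ccna2, for cyclin A2 of S phase and G2, had 31, 2, 2 and 62 UMIs in 14, 1, 1 and 26 cells. The 2 UMIs of irradiated 6 h and the 2 of sham 1 wk each came from 1 cell. Its log2 folds of -3.55 (-6.66 to -1.58) and 4.51 (2.6 to 7.59) therefore have wide intervals. The 4 genes together stood at 31.9, 10.3, 14.1 and 49.6 CPM.

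Among the kinases, Plk1, which acts in centrosome maturation and spindle assembly, had 41, 1, 4 and 43 UMIs in 16, 1, 3 and 19 cells. Its log2 folds were -4.96 (-10.29 to -2.4) at 6 h, from 1 UMI in irradiated cells, and 2.98 (1.52 to 4.92) at 1 wk. Aurka, the Aurora kinase of the spindle poles, had 36, 2, 5 and 55 UMIs in 17, 2, 5 and 24 cells. Aurkb, the kinase of the chromosomal passenger complex, had 43, 5, 8 and 62 UMIs in 24, 5, 6 and 28 cells. Both Aurora kinases had more UMIs in irradiated than in sham cells at 1 wk and fewer at 6 h. Their log2 folds were -3.77 (-6.87 to -1.81) and 3.02 (1.71 to 4.7) for Aurka and -2.7 (-4.4 to -1.37) and 2.51 (1.44 to 3.79) for Aurkb. Pbk, a kinase of mitotic cells, had 54, 6, 2 and 124 UMIs in 20, 4, 1 and 30 cells. It had the highest log2 fold of the 29 at 1 wk, 5.51 (3.63 to 8.57), against 2 UMIs from 1 sham cell, and -2.77 (-4.28 to -1.55) at 6 h. Bub1 and Bub1b, kinases of the spindle checkpoint, stayed under the 50 UMIs, with 9, 0, 0 and 20 UMIs for Bub1 and 13, 5, 3 and 20 for Bub1b. The kinase group summed to 20.1, 2.58, 3.88 and 42 CPM.

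Ube2c, the ubiquitin-conjugating enzyme of the anaphase-promoting complex, had 92, 13, 22 and 156 UMIs in 19, 13, 2 and 27 cells. In sham at 1 wk, 21 of the 22 UMIs came from 1 cell. Its log2 folds were -2.42 (-3.38 to -1.58) at 6 h and 2.38 (1.73 to 3.1) at 1 wk. Cdc20, the activator of that complex, had 69, 8, 18 and 97 UMIs in 22, 8, 10 and 25 cells and log2 folds of -2.71 (-3.97 to -1.65) and 1.99 (1.25 to 2.8). Cdca3, a protein of the entry into mitosis, had 51, 6, 4 and 69 UMIs in 19, 4, 4 and 30 cells and log2 folds of -2.69 (-4.2 to -1.46) and 3.67 (2.24 to 5.58). All 3 had their highest level in irradiated 1 wk, followed by sham 6 h.

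Among genes of chromosome structure, Top2a (ENSMUSG00000020914), the topoisomerase that untangles sister chromatids, had 144, 30, 12 and 268 UMIs in 20, 10, 7 and 39 cells. In irradiated 6 h, 13 of its 30 UMIs came from 1 cell. Its level was 14.8, 4.07, 2.11 and 34.7 CPM, with log2 folds of -1.86 (-2.48 to -1.28) at 6 h, 4.04 (3.21 to 5.01) at 1 wk and -2.81 (-3.79 to -1.96) between the shams. Mki67 (ENSMUSG00000031004), the chromosome surface protein used as a marker of cycling cells, had 53, 10, 11 and 119 UMIs in 16, 3, 3 and 30 cells. Its log2 folds were -2.0 (-3.14 to -1.01) and 2.99 (2.1 to 4.03). Smc4, a condensin subunit, had 212, 85, 78 and 195 UMIs in 150, 76, 71 and 101 cells and smaller log2 folds, -0.92 (-1.3 to -0.55) and 0.88 (0.49 to 1.28). Its locus holds Mir15b and Mir16-2 on the same strand. Hmgb2 (ENSMUSG00000054717), a DNA-bending chromatin protein, had 902, 342, 466 and 888 UMIs in 561, 260, 369 and 480 cells. Its levels were 92.6, 46.4, 82.1 and 115 CPM, and its log2 fold was -1.0 (-1.18 to -0.82) at 6 h. At 1 wk it stood at 0.49 (0.32 to 0.65), under 1.5-fold, and it was the 1 member of 29 not called there.

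**Figure D2:**
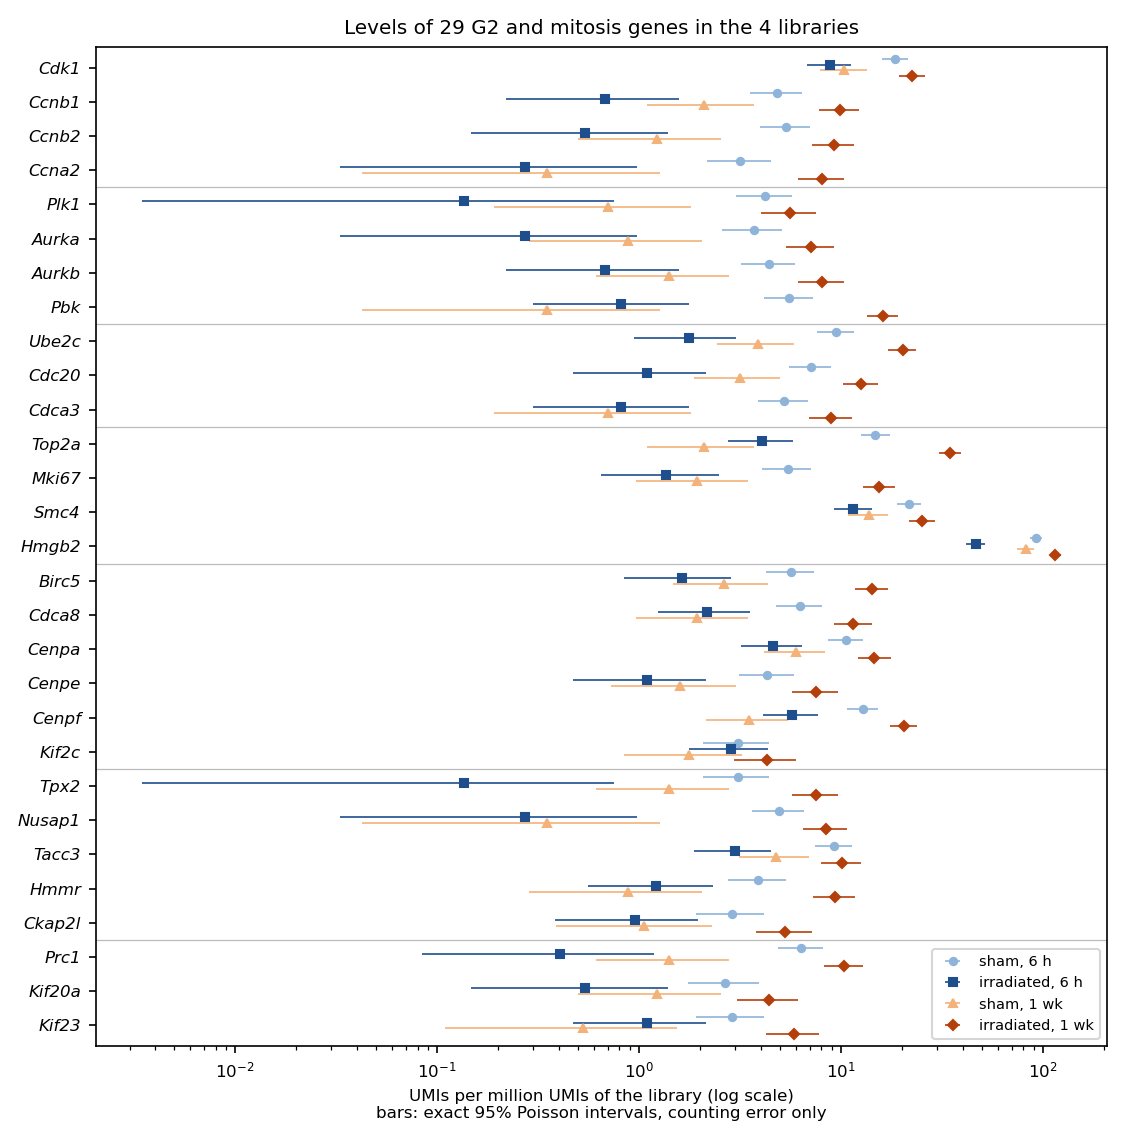
Level of each of the 29 genes (x axis, CPM, log scale) in the 4 libraries, grouped by role from cyclins (top) to cytokinesis (bottom); bars are exact 95% Poisson intervals. Irradiated 1 wk is the highest library for each of the 29 genes, and sham 6 h is second for each of them.

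At the centromere and kinetochore, Birc5 (survivin, of the passenger complex) had 55, 12, 15 and 110 UMIs in 18, 7, 4 and 29 cells and log2 folds of -1.79 (-2.83 to -0.88) at 6 h and 2.43 (1.65 to 3.32) at 1 wk. In sham at 1 wk, 10 of its 15 UMIs came from 1 cell. Cdca8 (borealin, of the same complex) had 61, 16, 11 and 89 UMIs in 32, 13, 9 and 33 cells, with -1.53 (-2.42 to -0.72) and 2.57 (1.67 to 3.63). Cenpa, the histone variant of centromeres, had 103, 34, 34 and 113 UMIs in 61, 29, 28 and 43 cells, with -1.2 (-1.8 to -0.62) and 1.29 (0.73 to 1.89). Its UMIs were spread over more cells than those of most members. Cenpe, a kinetochore motor, had 42, 8, 9 and 58 UMIs in 18, 6, 4 and 20 cells, with -1.99 (-3.29 to -0.88) and 2.25 (1.22 to 3.44). Cenpf, a large kinetochore protein, had 125, 42, 20 and 158 UMIs in 57, 33, 14 and 47 cells, with -1.17 (-1.71 to -0.66) and 2.54 (1.86 to 3.29). The kinesin Kif2c, which takes microtubules apart at centromeres, had 30, 21, 10 and 33 UMIs in 20, 20, 9 and 20 cells, a log2 fold of -0.11 (-0.99 to 0.74) at 6 h and 1.28 (0.22 to 2.46) at 1 wk. It was the 1 member of 29 not called at 6 h.

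Of the spindle genes, Tpx2, an activator of Aurora A, had 30, 1, 8 and 58 UMIs in 11, 1, 5 and 26 cells, with log2 folds of -4.5 (-9.86 to -1.92) at 6 h and 2.42 (1.34 to 3.69) at 1 wk. Nusap1, which bundles spindle microtubules, had 48, 2, 2 and 65 UMIs in 15, 1, 1 and 27 cells, with -4.18 (-7.27 to -2.25) and 4.58 (2.67 to 7.66). For Nusap1, irradiated 6 h and sham 1 wk rest on 1 cell each. Tacc3, a spindle protein that works with clathrin, had 90, 22, 27 and 78 UMIs in 66, 21, 25 and 56 cells, with -1.63 (-2.37 to -0.94) and 1.09 (0.44 to 1.78). Hmmr, a microtubule-bound spindle protein, had 38, 9, 5 and 72 UMIs in 13, 8, 3 and 24 cells, with -1.68 (-2.91 to -0.6) and 3.4 (2.12 to 5.07). Ckap2l, another spindle protein, had 28, 7, 6 and 41 UMIs in 17, 7, 6 and 26 cells, with -1.6 (-3.04 to -0.37) and 2.33 (1.08 to 3.86). These genes were spread over unequal numbers of cells, fewest for Tpx2 and Nusap1 in irradiated 6 h. Kif11, the motor that pushes the spindle poles apart, was under the 50 UMIs, with 14, 2, 3 and 16.

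For the midzone and cytokinesis, Prc1, which crosslinks midzone microtubules, had 62, 3, 8 and 80 UMIs in 19, 2, 3 and 27 cells, with log2 folds of -3.97 (-6.28 to -2.35) at 6 h and 2.88 (1.83 to 4.14) at 1 wk. Kif20a, a kinesin of the midzone, had 26, 4, 7 and 34 UMIs in 11, 2, 2 and 17 cells, with -2.3 (-4.28 to -0.77) and 1.84 (0.64 to 3.25). Kif23, the motor of centralspindlin, had 28, 8, 3 and 45 UMIs in 13, 6, 2 and 21 cells, with -1.41 (-2.75 to -0.23) and 3.46 (1.82 to 5.79). These 3 genes had their highest level in irradiated 1 wk. Anln, the actin-binding anillin, and Ect2, the exchange factor that activates RhoA, were under the 50 UMIs, with 11, 0, 2 and 18 UMIs for Anln and 11, 4, 4 and 12 for Ect2. Several members overlap genes on the other strand, among them Ccna2 with Exosc9, Cdc20 with Elovl1 and Prc1 with Rccd1. Whether reads were counted by strand is not stated.

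In sham 6 h and irradiated 1 wk most member UMIs came from few cells. Cells with UMIs of at least 5 distinct members numbered 17, 6, 3 and 35, or 0.641% (0.374 to 1.02), 0.302% (0.111 to 0.656), 0.190% (0.0391 to 0.553) and 1.63% (1.14 to 2.26) of each library (exact binomial intervals). This is a range on a count, not a cell type: 3, 1, 0 and 3 cells had exactly 4 members, 1, 0, 0 and 1 had exactly 5 and 0, 2, 1 and 3 had exactly 6. A large part of the range thus lay near its edge in irradiated 6 h and sham 1 wk. With at least 10 distinct members the cells numbered 16, 3, 2 and 27, or 0.603%, 0.151%, 0.126% and 1.26%. The cells with 5 or more members carried 1593 of 2832, 164 of 784, 185 of 887 and 2717 of 3579 member UMIs, that is 56.2%, 20.9%, 20.9% and 75.9%. The other 79.1% in irradiated 6 h and in sham 1 wk was spread over cells with fewer members, and 497 and 556 cells of these libraries had any member UMI. At least 20 distinct members were found in 13, 1, 1 and 22 cells, and the richest cells held 32, 24, 31 and 33 of the 34. Within the cells with 5 or more members, the summed level was 15000, 4420, 7990 and 12000 CPM. Irradiated 6 h thus had a smaller share of cells in this range than sham 6 h, but the intervals of the 2 shares overlapped. The level within the range was also lower there, but it is that of the genes on which the cells were chosen. Irradiated cells at 1 wk were more numerous in the range than those of either sham.

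**Figure D3:**
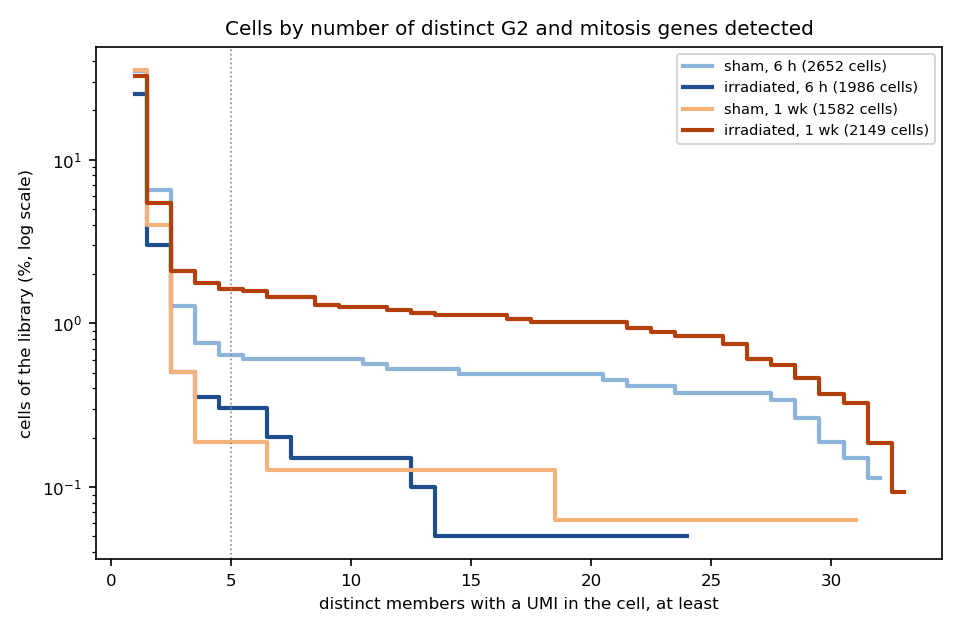
Percentage of cells in each library (y axis, log scale) with at least the number of distinct members on the x axis; the dotted line marks 5. The 1 wk irradiated library lies at the top from 3 members on (1.63% at 5), sham 6 h follows (0.641%), and irradiated 6 h (0.302%) and sham 1 wk (0.190%) lie lowest.

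The cells with 5 or more members were deeper than the others, with medians of 5745, 6454.5, 6674 and 5927 UMIs against 3528, 3511.5, 3592 and 3420. With each cell thinned to 2000 UMIs, leaving out 93, 90, 189 and 109 shallower cells, 14, 3, 2 and 29 cells kept 5 or more members, or 0.547%, 0.158%, 0.144% and 1.42%. The intervals of irradiated 6 h (0.0326 to 0.462) and sham 1 wk (0.0174 to 0.518) overlapped almost wholly. That of sham 6 h (0.299 to 0.916) overlapped both in part. Thinned to 1000 UMIs, the shares were 0.566%, 0.101%, 0.126% and 1.07%, so that these 2 libraries changed places while sham 6 h and irradiated 1 wk stayed above both.

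In the remaining cells, those with under 5 members, the differences were smaller. The other 32 members, without Hmgb2 and Smc4, summed to 419, 235, 190 and 240 UMIs there, or 43.5, 32.1, 33.6 and 32 CPM. Cdk1 alone gave 130, 55, 55 and 77 of these UMIs. Sham at 6 h was above the other 3 libraries, which lay within each other's intervals. The log2 fold in these cells was -0.44 (-0.68 to -0.21) at 6 h and -0.07 (-0.35 to 0.21) at 1 wk. Over all 34 members it was -0.6 (-0.75 to -0.46) and -0.11 (-0.26 to 0.04), so the summed fold at 1 wk turned sign without the 35 and 3 cells. Counted in these cells alone, 3 of the 29 members were called lower at 6 h, 0 higher at 1 wk and 1 lower between the shams, in place of 28, 28 and 25. Over all 10635 genes tested, the same calls in the same cells took 8.16%, 2.47% and 3.81%, so that the members' counts of 3, 0 and 1 were near the background and are no result about them. The 3 were Cdk1 at -0.85 (-1.33 to -0.38), Hmgb2 at -0.73 (-0.93 to -0.54) and Tacc3 at -1.14 (-2.0 to -0.34), and the 1 was Cenpf; they were chosen after their values were seen. The cells left out were chosen on the members' own UMIs, and fewer UMIs also make fewer calls. Any UMI of the 32 was found in 14.1%, 10.8%, 11.1% and 11.4% of cells. The share in a cell type that lacks these genes could not be set beside these, since 1 cell in all fell outside the microglia gate. How far free RNA adds to single UMIs was not tested.

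The members differed in how far their UMIs were confined to those few cells. In irradiated 1 wk, all 62 Ccna2 UMIs, all 72 Hmmr UMIs, 122 of 124 Pbk UMIs and 118 of 119 Mki67 UMIs lay in the 35 cells, against 97 of 174 for Cdk1, 44 of 78 for Tacc3, 119 of 195 for Smc4 and 342 of 888 for Hmgb2. Since the cells were chosen on these genes, this is a description and not a test. Single cells weighed most in irradiated 6 h and sham 1 wk, the libraries with the fewest member UMIs. The cell with most member UMIs held 179, 95, 134 and 222 of them, or 6.32%, 12.1%, 15.1% and 6.20% of the library's member UMIs. Leaving out that cell in every library, the summed log2 folds were -1.54 (-1.67 to -1.42) at 6 h and 1.71 (1.6 to 1.83) at 1 wk, and the calls numbered 28 and 28 as before.

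Each of the 61 cells with 5 or more members also carried 8 or 9 of the 9 microglia markers. None of them had UMIs of 3 or more markers of any of 13 other classes, and the markers of neutrophils, T cells, NK cells, neurons, erythroid cells and oligodendrocyte precursors were at 0 UMIs in them. The summed microglia marker level was lower in them, at 50800, 40300, 56600 and 51500 CPM against 68600, 58800, 63400 and 65200 CPM in the other cells. The 6 markers of border macrophages, macrophages at the meninges and vessels, summed to 66.0 (26.5 to 136), 0, 0 and 114 CPM (74.7 to 168). In the other cells they stood at 44.5, 45, 20 and 21.6 CPM (18.4 to 25.2 in irradiated 1 wk). In irradiated 1 wk the intervals did not overlap, with UMIs of Mrc1 and Pf4 in 13 of the 35 cells. The 5 monocyte markers summed to 151 (86.2 to 245), 54.0 (6.53 to 195), 173 (47.0 to 442) and 26.4 CPM (9.69 to 57.5). These came from 1 marker in each library, Plac8, against 29.5, 29.5, 7.78 and 12.2 CPM in the other cells. For monocytes the intervals did not overlap in sham 6 h (26.2 to 33.1 in the other cells) and sham 1 wk (5.66 to 10.5). The 7 markers of neural progenitors and neuroblasts, cells of the brain that themselves divide, summed to 47.1 (15.3 to 110), 108 (29.4 to 276), 43.2 (1.09 to 241) and 22.0 CPM (7.14 to 51.3) against 4.47, 27.2, 6.9 and 2.94 CPM in the other cells. All of it in the cells with 5 or more members was Nes, which encodes nestin, with 5, 4, 1 and 5 UMIs. The other 6, among them Sox2 and Dcx, were at 0 there. The 6 astrocyte markers summed to 94.3, 297, 0 and 88.0 CPM against 149, 258, 144 and 184 CPM. The part of these classes in the member levels was not tested. Summed over a list of 36 S phase genes, which act in DNA replication, these cells stood at 3780, 2910, 2330 and 4580 CPM against 464, 425, 446 and 536 CPM in the other cells. Scrublet, a caller of doublets, marked 45 of the 8369 cells (0.538%) and 0 of these 61. It was set to expect 6% and marked few cells in all, so the 0 does not show that these cells were single.

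Cdkn1a, which encodes p21, was measured in the same cells. It had 508, 21689, 322 and 17026 UMIs, or 52.2, 2940, 56.7 and 2210 CPM, and was detected in 9.46%, 97.6%, 9.86% and 91.2% of cells. Its log2 fold was 5.82 (5.69 to 5.95) at 6 h and 5.28 (5.12 to 5.45) at 1 wk. Cdkn1a was thus high in both irradiated libraries, where the summed member level was the lowest at 6 h and the highest at 1 wk. Among the cells with 5 or more members, 12 of 17, 6 of 6, 2 of 3 and 33 of 35 had a Cdkn1a UMI, or 70.6% (44.0 to 89.7), 100% (54.1 to 100), 66.7% (9.43 to 99.2) and 94.3% (80.8 to 99.3). In the other cells the shares were 9.07%, 97.6%, 9.75% and 91.1%. After thinning to 2000 UMIs they were 9 of 17, 6 of 6, 1 of 3 and 30 of 35 in the cells with 5 or more members, against 5.47%, 95.6%, 6.12% and 85.1% in the others.

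In irradiated 1 wk the cells rich in members did not lack Cdkn1a. Their Cdkn1a level was 1860 CPM (1680 to 2040) against 2220 CPM (2180 to 2250) in the other cells, and 1620 CPM (1460 to 1800) without the 1 cell that held 69 Cdkn1a UMIs. The cell with most members and most member UMIs there, 33 members and 222 UMIs, carried 7 Cdkn1a UMIs. In irradiated 6 h the levels were 3130 CPM (2590 to 3750) and 2940 CPM (2900 to 2980). In sham 6 h they were 877 CPM (708 to 1070) and 43.1 CPM (39.0 to 47.4), but 50 of the 93 UMIs came from 1 cell, without which the level was 445 CPM (322 to 600). In sham 1 wk the 3 cells held 3 Cdkn1a UMIs, or 130 CPM (26.7 to 378), against 56.4 CPM (50.4 to 63.0). Cells with many members thus carried more Cdkn1a than the other cells in sham 6 h, and a somewhat lower level than the others in irradiated 1 wk. In irradiated 6 h and sham 1 wk the intervals overlapped.

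**Figure D4:**
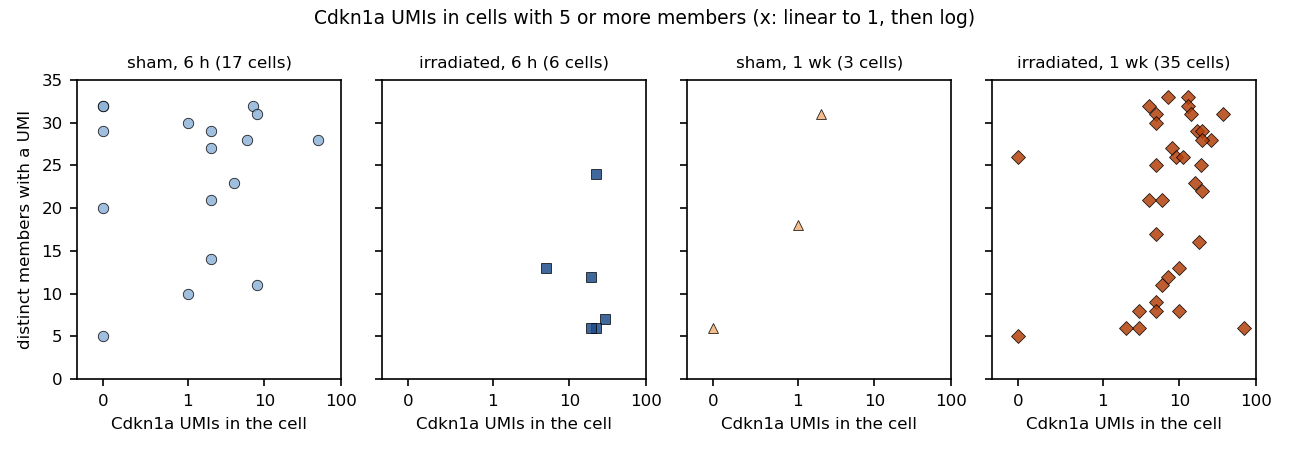
Cdkn1a UMIs (x axis, linear to 1 and then log) and distinct members (y axis) of each cell with 5 or more members, by library; 1 symbol is 1 cell. In irradiated 1 wk, 33 of 35 cells lie right of 0, and in sham 6 h 12 of 17.

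Cells were also split by their Cdkn1a UMIs after thinning to 2000 UMIs, so that cells of unequal depth were classed alike. In irradiated 1 wk the summed member level was 292 CPM (251 to 338) in the 303 cells at 0, 397 (359 to 438) in 500 cells at 1 to 2, 337 (305 to 372) in 583 cells at 3 to 5 and 233 (208 to 261) in 654 cells at 6 or more. The class at 0 held 5 cells with 5 or more members and the next 3 classes 15, 8 and 7. Without those cells the levels were 131, 112, 94.8 and 105 CPM, with overlapping intervals. Cells without a Cdkn1a UMI had a log2 level of -0.11 (-0.35 to 0.12) relative to cells with one, an interval that includes no difference. Without thinning that value was -0.89 (-1.12 to -0.67), where 2 in place of 5 of the cells with 5 or more members lay in the class at 0. The order of the classes also depended on depth. Without thinning their levels were 261, 135, 473 and 590 CPM, from 0 to 6 or more. Thinned to 1000 UMIs they were 266, 341, 238 and 132 CPM, and the last class held 0 cells with 5 or more members. In sham 6 h the thinned level was 176 CPM (165 to 189) in 2411 cells at 0 and 1150 CPM (1030 to 1280) in 148 cells with a UMI, of which 9 had 5 or more members. In sham 1 wk it was 137 CPM (123 to 152) in 1307 cells and 442 CPM (348 to 553) in 86 cells, 1 of them with 5 or more members. Leaving out the cells with 5 or more members, the values were 132 CPM (122 to 142) and 198 CPM (149 to 258) in sham 6 h and 131 CPM (117 to 145) and 188 CPM (129 to 266) in sham 1 wk. In irradiated 6 h it was 72.3 CPM (37.4 to 126) in 83 cells and 109 CPM (98.7 to 121) in 1813 cells. No library thus had its members confined to cells without Cdkn1a.

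Gene by gene, the thinned level of cells with a Cdkn1a UMI was above that of cells without one, with the interval past no difference, for 27 of 34 members in sham 6 h, 0 of 30 detected in irradiated 6 h, 10 of 30 detected in sham 1 wk and 1 of 34 in irradiated 1 wk. Without thinning the counts were 34 of 34, 0 of 32, 19 of 33 and 9 of 34. The opposite was seen for 0 members in each library, thinned or not. In irradiated 6 h, 26 members had no UMI in the 83 cells without Cdkn1a, so that a difference was not detectable at this depth. These counts rest on the same 17, 6, 3 and 35 cells and are not independent between genes. The share over all genes was not taken for this split, so the counts cannot be set against genes in general.

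**Figure D5:**
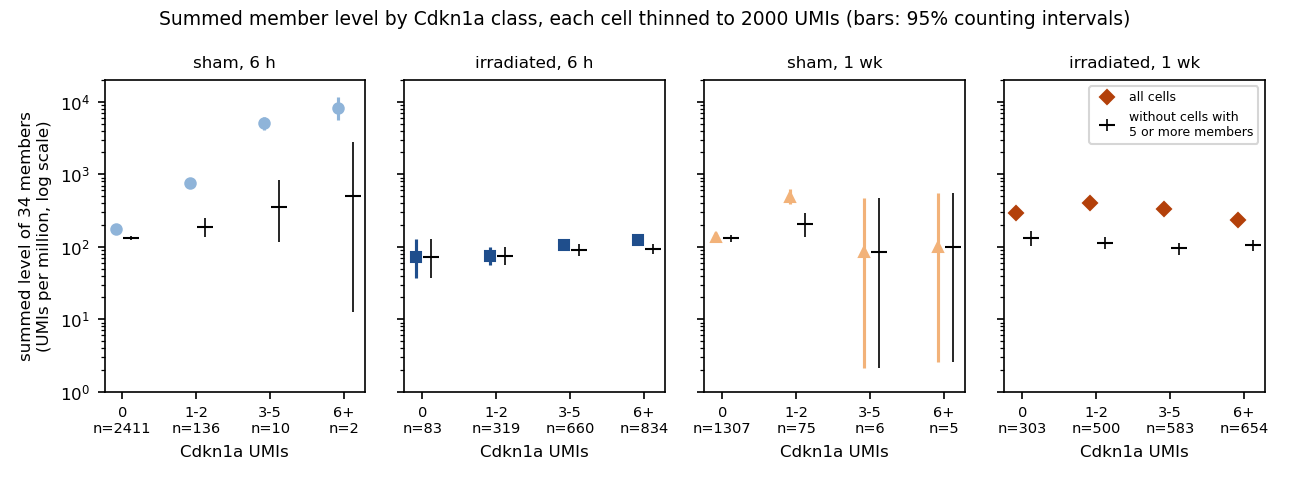
Summed level of the 34 members (y axis, CPM, log scale) by Cdkn1a UMIs of the cell (x axis, n = cells) after thinning to 2000 UMIs; bars are 95% counting intervals, and black dashes leave out cells with 5 or more members. Levels are higher in the classes with more Cdkn1a in sham 6 h (176 CPM at 0), where the upper classes hold 10 and 2 cells. In irradiated 1 wk the highest class is 1 to 2 (397 CPM) and the lowest 6 or more (233 CPM), an order that depended on depth.

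Other genes of the cell cycle were taken from lists. Of 61 other G2 and mitosis genes, 38 had at least 50 UMIs. At 6 h, 19 of them were called lower and 5 higher, against 8.85% and 8.65% of all genes tested. At 1 wk 27 were called higher and 0 lower, against 3.61% and 2.82%. The median log2 folds were -0.72 and 1.20. Between the shams 17 of the 38 were lower and 0 higher, against 4.37% and 2.57%. The 3 with most UMIs were H2afz (a histone variant; 3697, 2549, 2045 and 3126 UMIs), Bub3 (a checkpoint protein; 1356, 901, 714 and 1041) and Stmn1 (stathmin, which destabilises microtubules; 822, 721, 282 and 868). Their log2 folds at 1 wk were 0.17 (0.09 to 0.25), 0.1 (-0.04 to 0.24) and 1.18 (0.98 to 1.38). The 5 called higher at 6 h, named after their values were seen, were Kifc1, Tubb4b, Lmnb1, Gtse1 and Psrc1. Gtse1 and Psrc1, both known as p53 target genes, had 6, 119, 2 and 21 UMIs (Gtse1) and 12, 178, 3 and 52 UMIs (Psrc1). Unlike the 29 members they were highest in irradiated 6 h, with log2 folds of 4.71 (3.55 to 6.19) and 4.29 (3.45 to 5.27).

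Of the 36 S phase genes, 32 had at least 50 UMIs. At 6 h, 13 were called lower, against 8.85% of all genes tested, and 1 higher (Pcna), a share below the 8.65% of all genes. At 1 wk 19 were called higher and 0 lower, against 3.61% and 2.82%. Between the shams 4 were called lower and 0 higher, against 4.37% and 2.57%. The medians were -0.43 at 6 h, 0.87 at 1 wk and -0.25 between the shams. The 3 with most UMIs were Slbp (1003, 605, 504 and 882 UMIs), which binds histone mRNA, Pcna (536, 631, 387 and 565), the sliding clamp of DNA polymerase and a p53 target, and Rfc2 (587, 425, 322 and 508), a subunit of the clamp loader. Their log2 folds at 6 h were -0.33 (-0.47 to -0.18), 0.64 (0.47 to 0.81) and -0.06 (-0.25 to 0.12).

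The inhibitor list held 15 genes that restrain the cycle, all with at least 50 UMIs, and values given with their names are log2 folds. Over all genes tested, 8.65% were called higher and 8.85% lower at 6 h, and 3.61% and 2.82% at 1 wk. At 6 h, Cdkn1a, Ccng1 at 3.68 (3.49 to 3.88), Rb1 at 0.65 (0.35 to 0.95) and Rbl2 at 0.9 (0.49 to 1.31) were called higher. Cdkn1b at -0.67 (-0.95 to -0.4), Cdkn2c at -0.78 (-1.23 to -0.35), Cdkn2d at -0.91 (-1.45 to -0.4) and Rbl1 at -1.14 (-1.77 to -0.53) were called lower. At 1 wk, Cdkn1a, Ccng1 at 2.49 (2.17 to 2.82), Cdkn2c at 0.67 (0.22 to 1.13) and Rbl1 at 0.97 (0.36 to 1.6) were called higher and Cdkn1c at -1.09 (-1.5 to -0.67) lower. Of these, Cdkn2c, the inhibitor p18, had 42, 4, 4 and 78 of its 148, 65, 62 and 134 UMIs in the cells with 5 or more members. Btg2 (10254, 9060, 10291 and 14385 UMIs), E2f4 (634, 506, 383 and 550), Lin37 (342, 233, 217 and 309), Lin54 (133, 82, 59 and 93), Lin52 (57, 47, 29 and 45) and Cdkn2a (20, 11, 12 and 24) were not called at either time. E2f4 and the Lin proteins are parts of the DREAM complex. Btg2 had a log2 fold of 0.78 (0.74 to 0.82) between the shams and was called higher at 1 wk there. Ccng1 and Rbl1 were called lower at 1 wk in that comparison. The shares of all genes were 2.57% higher and 4.37% lower. Set against sham 6 h, irradiated 1 wk had Cdkn1a, Ccng1 and Btg2 called higher and 0 lower, against 3.49% and 4.63% of genes. Cdkn2c, Rbl1 and Cdkn1c were thus called at 1 wk against 1 sham only.

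Outside the members, the genes most concentrated in the same cells were taken by the ratio of their CPM in the 35 cells of irradiated 1 wk to that in its other cells, with at least 20 UMIs in the 35 cells and with a gene under 3 UMIs in the other cells put at 3. The 10 highest were Rrm2, Casc5, Nuf2, Neil3, 2810417H13Rik, Fam64a, Ndc80, Cdca2, Esco2 and Knstrn. Rrm2, a subunit of ribonucleotide reductase, had 90 UMIs in those cells and 2 in the others, Casc5 61 and 0, and 2810417H13Rik had 111 and 8. In sham 6 h, which played no part in the choice, Rrm2 had 43 and 5 UMIs, 2810417H13Rik 48 and 12, Neil3 28 and 1, and Fam64a 26 and 0. In irradiated 6 h Rrm2 had 18 and 0, from 2 of the 6 cells, and Nuf2 2 and 0. Sham 1 wk, with 3 such cells, had 0 and 0 UMIs of Rrm2 and Esco2.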

How the data were processed

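Single-cell RNA was measured in 4 libraries of mouse microglia, 1 per group. The authors deposited raw UMI counts for each gene and barcode. The submitters' processing notes name Cell Ranger 2.0 and mm10. Which barcodes the authors kept is not stated. The series' design gives 8095 cells, and 8486 barcodes were in the matrices.

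A barcode needed 1000 UMIs, 500 genes and no more than 10% of UMIs from mitochondrial genes, and 8369 passed. Doublets stayed in. CPM was taken over a library's kept UMIs. Folds carry exact conditional binomial intervals, sums exact Poisson intervals and shares exact Clopper-Pearson intervals, at 95%. A library at 0 was put at 3 UMIs. Calls needed 1.5-fold and 50 UMIs over the 4 libraries. Thinning drew 2000 UMIs per cell without replacement. The fold intervals were tried only on simulated Poisson counts, the model that they assume. Those counts do not gather in few cells as the members' UMIs do, so how the intervals hold for the members was not tested. Python 3.11.15, numpy 2.4.6, scipy 1.17.1 and scanpy 1.11.5 were used.

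The members and the gene lists were chosen with earlier results of these data known. All 34 members are accounted for. From each list the 3 genes with most UMIs were named, as was every inhibitor, and 10 further genes by their concentration in the cells with 5 or more members. Gene coordinates are from GENCODE vM21 (GRCm38), which held the identifiers of all 34 members.

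Alternatives were all barcodes, a stricter cell filter (2000 UMIs, 1000 genes, 5% mitochondrial), removal of barcodes marked by Scrublet at an expected rate of 6%, a gate on 3 of 9 microglia markers, scaling by the median of ratios, other gene filters and call rules, thinning to 1000 UMIs, and 3 or 10 distinct members.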

Additional observations from a re-analysis of the deposited data

Results flagged for a closer look

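Summed, the 34 genes lay on opposite sides of sham at the 2 times, and their log2 fold of irradiated over sham was -1.45 at 6 h and 1.57 at 1 wk, a gap of 3.02. Of the 29 members with at least 50 UMIs, 27 were called lower at 6 h and higher at 1 wk, against 88 of all 10635 genes tested (0.827%). The members' calls are not independent, since their UMIs lay in part in the same few cells. With 1 library per group the difference was not tested, and each time has a sham of its own, so a gap also carries the difference between the shams.

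The gap in log2 fold, 1 wk minus 6 h, was widest for Nusap1 (8.76), Pbk (8.28), Ccna2 (8.06), Plk1 (7.94), Tpx2 (6.92), Prc1 (6.85), Aurka (6.78), Cdca3 (6.35), Ccnb2 (6.2). Several of these rest on 1 or 2 UMIs in a library. It was intermediate for Top2a (5.9), Aurkb (5.21), Hmmr (5.08), Ccnb1 (5.05), Mki67 (5), Kif23 (4.87), Ube2c (4.8), Cdc20 (4.69). It was narrowest for Cenpe (4.24), Birc5 (4.22), Kif20a (4.13), Cdca8 (4.1), Ckap2l (3.93), Cenpf (3.71), Tacc3 (2.72), Cenpa (2.49), Cdk1 (2.19), Smc4 (1.79), among them Cdk1 and Smc4, whose UMIs were spread over the most cells of these 27.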

How the results depend on the processing

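No paired analysis was possible because each group has 1 library and no result comes from a test. Counts of called members were 21 to 32 under the other cell sets, scaling, call rules and gene filters. A minimum of 200 UMIs per gene left only Cdk1, Ube2c, Top2a, Smc4, Hmgb2, Cenpa, Cenpf and Tacc3 to test. Of them all 8 were lower at 6 h, 7 higher at 1 wk and 7 lower between the shams. Over all genes, 1.5-fold without the interval took 10.7%, 5.6% and 6.54% for these 3 calls. With 2-fold and the interval the shares were 2.91%, 1.97% and 1.89%. Shares under the other cell sets, scaling and gene filters are not given. Without Hmgb2 and Smc4 the summed log2 folds were -1.86, 2.42 and -1.55 in that order. Without the cells with 5 or more members they were -0.60, -0.11 (opposite in sign) and -0.051, and the calls numbered 3, 0 and 1. Without each library's cell with most member UMIs, chosen like those call counts after the data were seen, the sums were -1.54, 1.71 and -1.04. The share of cells with 5 or more members was 1.07% in irradiated 1 wk and 0.101% in irradiated 6 h after thinning to 1000 UMIs, below the 0.126% of sham 1 wk, and 1.28% in sham 6 h with 3 or more distinct members. The log2 level of cells without over cells with a Cdkn1a UMI in irradiated 1 wk was -0.89 without thinning. The other 85 values moved by less than their counting interval, or by at most 1.5 times for counts. Depth limits the genes with few UMIs, and the shares in irradiated 6 h and sham 1 wk, which rest on 6 and 3 cells.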
